A study of Mus musculus with 2 samples.

Results

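The 8 microRNA genes that lie between the noncoding gene Meg3 and the protein-coding gene Rtl1 on mouse chromosome 12 were described in newborn skeletal muscle. They are Mir770, Mir673, Mir493, Mir337, Mir540, Mir665, Mir3070a and Mir3070b, in order from Meg3 to Rtl1. They were taken by position and symbol, not by their values, and make up 8 of the 1973 microRNA genes in the count tables. The tissue came from mice of strain B6NCrl at postnatal day 0, with no treatment or mutation in the labels and no sex recorded. RNA under 30 bases was sequenced in 2 libraries, replicates 1 and 2, each from a piece of muscle of 1 pup. Both carry the same donor record, so that they come from separate pups is an assumption. Tests between them ask whether the 2 libraries differ beyond counting error, and do not measure a spread between pups. The study has a single group, and the comparisons are between genes and between the libraries.

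Meg3 and Rtl1 belong to the imprinted Dlk1-Dio3 domain. Its noncoding RNAs, Meg3 and the microRNAs included, are expressed from the maternal chromosome, while Rtl1 and Dlk1 are expressed from the paternal one. A microRNA gene is transcribed as a longer RNA from which a hairpin is cut, and either arm of the hairpin can become a mature microRNA. The mature RNA pairs with messenger RNAs mainly through its seed, bases 2 to 8, and lowers their output. The domain is known for its role in growth and for its high microRNA output in embryonic and newborn tissues, muscle among them.

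On GRCm38, with GENCODE M21 gene models, all 8 hairpins lie on the plus strand of chromosome 12 within 25.0 kb. Mir770, at 109563692 to 109563785, is the single member inside a long gene on its own strand. It lies in an intron of 3 Meg3 transcripts and in an exon of another. The other 7 lie in no long gene of GENCODE M21. Mir673, at 109571990 to 109572080, starts 264 bases after the end of Meg3, and Mir493 lies at 109580233 to 109580315. A close group follows, with Mir337 at 109585789 to 109585885, Mir540 at 109586080 to 109586146 and Mir665 at 109586314 to 109586407. These hairpins are separated by 194 and 167 bases. Mir3070a, at 109587943 to 109588031, and Mir3070b, at 109588592 to 109588680, come last, and Mir3070b ends 513 bases before Rtl1, which is read from the minus strand. In RefSeq's annotation of the same build the span of Rtl1 is longer, 39.5 kb against 11.1 kb, and covers 7 of the 8 hairpins on the other strand. For Mir337 and Mir540 the gene ID has a newer version in M21 than in the tables, so the bounds used for counting may differ from those given.

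RefSeq (GRCm38.p6) holds a hairpin and mature arms for all 8 members. The counts are per hairpin and do not separate the arms, so both arms of the 6 more abundant genes are shown, 5′ to 3′ with the seed in capitals.
miR-770-5p: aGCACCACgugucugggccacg
miR-770-3p: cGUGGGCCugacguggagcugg
miR-673-5p: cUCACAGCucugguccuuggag
miR-673-3p: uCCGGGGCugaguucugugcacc
miR-493-5p: uUGUACAUgguaggcuuuc
miR-493-3p: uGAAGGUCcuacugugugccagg
miR-337-5p: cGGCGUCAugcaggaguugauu
miR-337-3p: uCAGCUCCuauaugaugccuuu
miR-540-5p: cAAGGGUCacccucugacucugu
miR-540-3p: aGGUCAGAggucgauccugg
miR-665-5p: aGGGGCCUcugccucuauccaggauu
miR-665-3p: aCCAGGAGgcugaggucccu

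The 16 arms of the 8 members carry 14 different seeds, and the only seeds that recur among them are those common to Mir3070a and Mir3070b. The group therefore is a set of neighbours and not a seed family. Among the other mouse microRNAs of the RefSeq table, the seed of miR-673-5p recurs in miR-6985-3p, whose gene Mir6985 had 0.503 CPM (counts scaled to a common library total) in replicate 1 and 0.0925 CPM in replicate 2. The seed of miR-540-3p recurs in miR-6915-5p. The hairpins of the members had a median GC content of 55.1% and a median folding energy of -43.2 kcal/mol as predicted by RNAfold, against 50.9% and -36.6 kcal/mol over 317 detected microRNA genes with a hairpin in RefSeq. The members' hairpins were also longer (median 90 against 84 bases), and per base the median energies were -0.490 and -0.434 kcal/mol. Mir3070a (-0.366) and Mir3070b (-0.390) had less stable predicted folds per base than the median detected gene. Mir770 had the highest GC content of the 8, 70.2%, and the most stable predicted fold, -58.2 kcal/mol.

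Mir3070a and Mir3070b are near-copies, and their hairpins are shown because the difference between them decides which reads can be counted. Capitals mark the bases at which the 2 differ.
Mir3070a: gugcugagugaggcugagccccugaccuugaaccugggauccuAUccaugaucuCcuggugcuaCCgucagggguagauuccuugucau
Mir3070b: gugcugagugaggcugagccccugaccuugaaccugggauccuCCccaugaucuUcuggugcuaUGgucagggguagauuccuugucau
Counted from the 5′ end of the hairpin, the substitutions from Mir3070a to Mir3070b are A44C, U45C, C55U, C65U and C66G, 5 in 89 bases. Of these, 0 fall in the 5p arm, which is identical in both, and C65U and C66G fall in the 3p arm, outside its seed.

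Replicate 1 held 7955914 and replicate 2 held 10816295 counts on the annotated strand of microRNA genes, and these totals are the ones CPM are scaled to. At this depth 3 counts, the limit that a count of 0 allows, correspond to 0.377 CPM in replicate 1 and 0.277 CPM in replicate 2. The intervals and limits given here reflect counting error alone. A gene was called detected with at least 10 counts in both libraries, which held for 365 of 1973 genes (18.5%). Each read spans a whole mature microRNA, so counts were not divided by gene length. The 6 skeletal muscle markers on the marker list were all detected, with summed levels of 109277 CPM in replicate 1 and 122729 CPM in replicate 2. Mir206 alone made up most of this, with 107144 and 120690 CPM. Mir1a-1 (10.1 and 6.47 CPM) and Mir133a-1 (5.91 and 5.55 CPM) were lowest, and Mir133b, Mir208b and Mir499 lay between. The names of Mir1a-1 and Mir133a-1 mark them as numbered copies, and reads that fit several places are not counted. Their low levels therefore do not show that these microRNAs were scarce, and may be lower limits, which was not tested. Markers of endothelium (44986 and 47428 CPM) and smooth muscle (31531 and 28506 CPM) were high too. Of the 5 neuronal markers in the tables, 0 were detected. These are numbered copies of Mir9 and Mir124a, and reads that fit several places are not in the gene counts. That they were not detected therefore does not show that nerve tissue was absent. The 7 epithelial markers summed to 531 CPM in replicate 1 and 334 CPM in replicate 2, and the 2 erythroid markers to 583 and 286 CPM. Cartilage (1257 and 1073 CPM), leukocyte (574 and 448 CPM) and heart markers (15.5 and 12.1 CPM) were also lower in replicate 2. The liver marker was higher there, at 86.4 and 153 CPM. These directions are in CPM and in part depend on scaling. With the scaling used below for tests between the libraries, the log2 ratio of replicate 1 over replicate 2 was -0.018 for cartilage (Mir140). It was 0.107 for heart (Mir208a), and the leukocyte markers split, with 0.144 for Mir223 and -0.214 for Mir150. The erythroid (Mir451a 0.83, Mir144 0.20) and liver markers (Mir122 -1.07) kept their directions. Whether such differences in markers of other cell types bear on the values of the 8 genes was not tested.

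All 8 genes were detected. Mean levels ran from 6433 CPM at Mir337, the highest, to 1.25 CPM at Mir3070b, the lowest. Together they took 1.84% of annotated-strand counts in replicate 1 and 1.94% in replicate 2, a mean of 1.89% ± 0.0743 (SD, n = 2). Of the 8, 5 had a mean above 1000 CPM, and the median rank of the 8 among all genes by mean CPM was 65.5. The 3 genes of the close group, Mir337, Mir540 and Mir665, held 76.3% of the members' counts in replicate 1 and 77.1% in replicate 2.

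**Figure D1:**
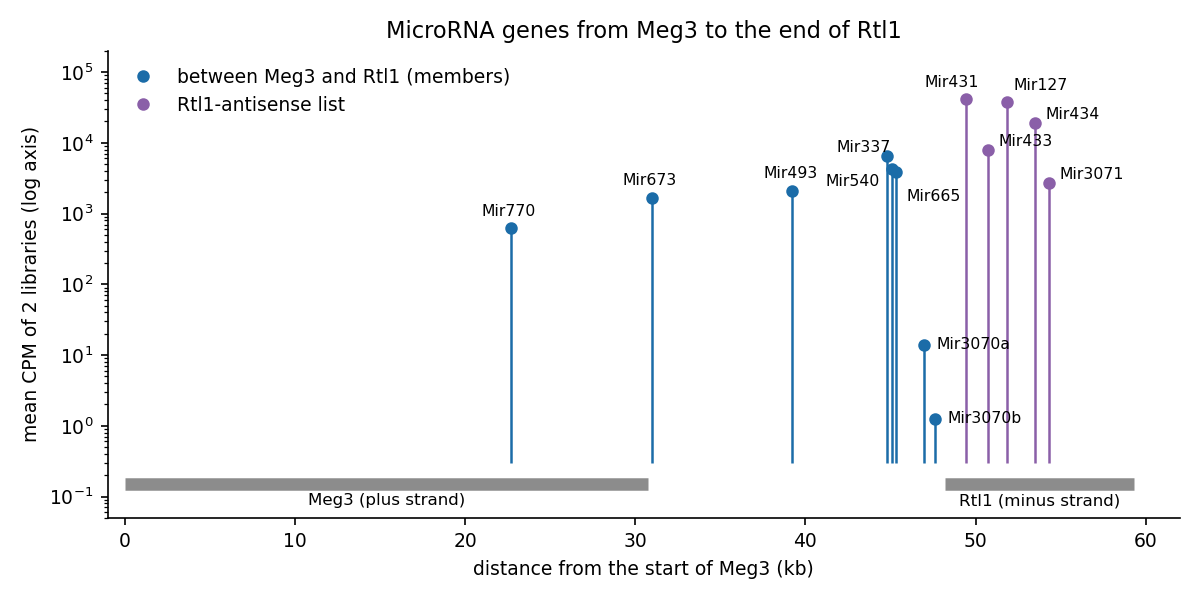
Mean level of each detected microRNA gene from Meg3 to the end of Rtl1 (CPM over 2 libraries, log axis) against its distance from the start of Meg3 in kb, with the members in blue, the Rtl1-antisense list in purple and bars for Meg3 and Rtl1 as GENCODE M21 places them. Among the members the level is 619 CPM at Mir770 and 6433 CPM at Mir337, and it is 1.25 CPM at Mir3070b, next to Rtl1.

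Mir337 had 46734 counts in replicate 1 and 75620 in replicate 2, which is 5874 CPM and 6991 CPM (mean 6433 ± 790.0 SD, n = 2). It ranked 32 among all genes by mean CPM. Its neighbour Mir540 had 30654 and 49283 counts, 3853 CPM in replicate 1 and 4556 CPM in replicate 2 (mean 4205 ± 497). Both genes stood higher in replicate 2, and neither library's value of Mir337 overlapped those of Mir540.

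Mir665 had 34208 counts in replicate 1 and 37187 in replicate 2, or 4299.7 CPM and 3438 CPM (mean 3869 ± 609 SD, n = 2). In contrast with Mir337 and Mir540, its level was higher in replicate 1. Its range overlapped that of Mir540, so these 2 genes could not be ordered. A stretch of 21 of the 26 bases of miR-665-5p also occurs, on the opposite strand, in a transcript of Gm5554, and 18 of the 20 bases of miR-665-3p in one of Bhlha15. Multimapping reads are not in the gene counts, so the level of Mir665 may be a lower limit, which was not tested.

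Nearer to Meg3 the levels were lower. Mir493 had 16318 counts in replicate 1 and 23249 in replicate 2, or 2051 CPM and 2149 CPM (mean 2100.2 ± 69.6 SD, n = 2). Mir673 had 13464 and 17644 counts, or 1692 CPM in replicate 1 and 1631 CPM in replicate 2 (mean 1662 ± 43.2). Mir770, the gene inside Meg3, had 4709 and 6984 counts, or 592 CPM in replicate 1 and 646 CPM in replicate 2 (mean 619 ± 38.0). The 3 genes kept this order in both libraries, with ranges that did not overlap in CPM. On this scale, set by library totals, their SD was 2.60% to 6.15% of the mean, against 11.8% to 15.7% for the close group. That contrast depends on the scaling, since after scaling by the trimmed mean of M values, used for the tests between the libraries, Mir665 differed less between the libraries than Mir770, Mir673 and Mir493.

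At the Rtl1 end, Mir3070a had 107 counts in replicate 1 and 155 in replicate 2, or 13.4 CPM (95% exact Poisson interval 11.02 to 16.3) and 14.3 CPM (12.2 to 16.8). Mir3070b had 11 and 12 counts, or 1.38 CPM (0.690 to 2.47) in replicate 1 and 1.11 CPM (0.573 to 1.94) in replicate 2. The ratio of Mir3070a to Mir3070b was 9.73 in replicate 1 and 12.9 in replicate 2, above 1 in both libraries. Mir770, the next gene above them, exceeded Mir3070a 44.5-fold ± 0.742 (SD, n = 2). Since both genes yield the same 5p arm, reads of that arm fit both places and were set apart. Windows of 22 bases tell the hairpins apart at 44 of 68 positions. The counts of Mir3070a and Mir3070b are therefore lower limits, and how much lower was not tested.

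**Figure D2:**
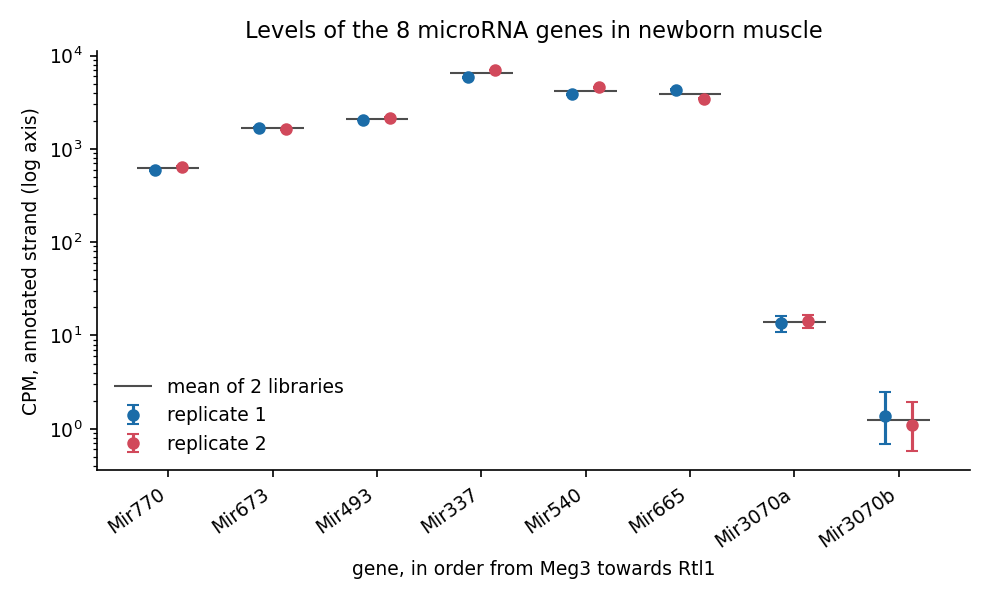
Level of each of the 8 genes in both libraries (CPM on the annotated strand, log axis), with 95% exact Poisson intervals as bars and the mean of the 2 libraries as a line. Mir337 is highest in both libraries, Mir540 and Mir665 change places between them, and the Mir3070 genes lie near 13.9 and 1.25 CPM.

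In order of mean CPM the genes ran Mir337, Mir540, Mir665, Mir493, Mir673, Mir770, Mir3070a and Mir3070b. Of the 7 neighbouring pairs in this order, Mir540 and Mir665 were the single pair whose ranges over the libraries overlapped. Mir337 exceeded Mir540 1.52-fold in replicate 1 and 1.53-fold in replicate 2. Mir665 exceeded Mir493 2.10-fold in replicate 1 and 1.5995-fold in replicate 2, and Mir673 exceeded Mir770 2.86-fold and 2.53-fold. The step from Mir493 to Mir673 was smaller, 1.21-fold in replicate 1 and 1.32-fold in replicate 2, but had the same direction in both. Differences in how readily each RNA is ligated and amplified enter all comparisons between genes and were not measured.

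The ratios inside the close group do not depend on how the libraries are scaled. The pair of Mir337 and Mir540 kept its ratio, 1.52 (95% exact counting interval 1.503 to 1.547) in replicate 1 and 1.53 (1.517 to 1.552) in replicate 2. The ratio of Mir540 to Mir665, only 167 bases further on, was 0.896 (0.882 to 0.910) in replicate 1 and 1.33 (1.31 to 1.34) in replicate 2. Both pairs were chosen with their values in view. Mir665 accordingly made up 23.4% of the members' counts in replicate 1 and 17.7% in replicate 2. The share of Mir337 was 32.0% in replicate 1 and 36.0% in replicate 2, and that of Mir540 was 20.97% and 23.45%. Mir493 (11.2% and 11.1%) and Mir770 (3.22% and 3.32%) held nearly constant shares. In tissue samples, fewer cells of a type and less RNA per cell cannot be told apart.

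**Figure D3:**
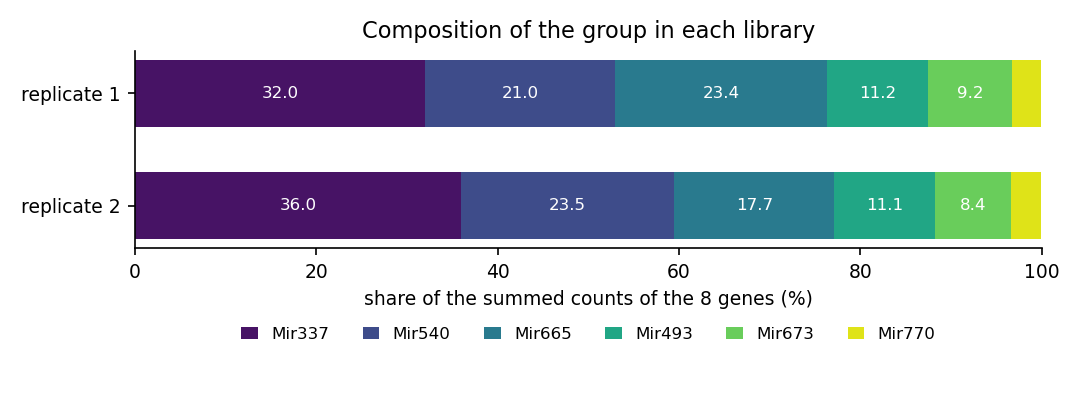
Share of the summed counts of the 8 genes taken by each gene (percent, horizontal axis) in replicate 1 and replicate 2. The share of Mir665 is 23.4% in replicate 1 and 17.7% in replicate 2, and Mir3070a and Mir3070b, together under 0.1%, are not visible.

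The 2 libraries were compared gene by gene over all 365 detected genes, with library sizes scaled by the trimmed mean of M values (TMM) and an exact two-sided binomial test with Benjamini-Hochberg adjustment. The test allows for counting error and nothing else. It compares 2 libraries, and abundant genes pass it readily. At an adjusted p under 0.05, 6 of the 8 members were called, against 61.1% of all detected genes. Replicate 2 was higher for 5 of them, Mir770, Mir673, Mir493, Mir337 and Mir540, where 31.0% of all detected genes were called in that direction. Replicate 1 was higher for Mir665 alone, against 30.1% of all detected genes. None of the 8 reached a 2-fold difference, a step that 7.40% of all detected genes passed, while 6 members were under 0.05 without adjustment too.

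The log2 ratio of replicate 1 over replicate 2 was -0.50 for Mir337 (95% counting interval -0.51 to -0.48) and -0.49 for Mir540 (-0.51 to -0.47). It was -0.37 for Mir770 (-0.42 to -0.32) and -0.31 for Mir493 (-0.34 to -0.28). Mir673 had -0.19 (-0.22 to -0.16, adjusted p = 5.58e-31 by the exact binomial test), but 0.053 when the libraries were scaled by their totals (adjusted p = 0.00234, same exact test). Mir665 had 0.077 (0.056 to 0.098, adjusted p = 2.50e-12 by the exact binomial test). Its call was lost, with a ratio of 0.011 and adjusted p = 0.421 by the same exact test, when TMM was computed without the genes of the domain, a setting chosen after seeing the data. The ratios of Mir3070a, -0.34 (-0.71 to 0.028), and Mir3070b, 0.072 (-1.25 to 1.38), had intervals that include 0. The median of the 8 ratios was -0.33, beside 0.015 over all detected genes. Each ratio was lower by a constant, a shift of -0.25, than with scaling by library totals, under which these medians were -0.080 and 0.26.

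**Figure D4:**
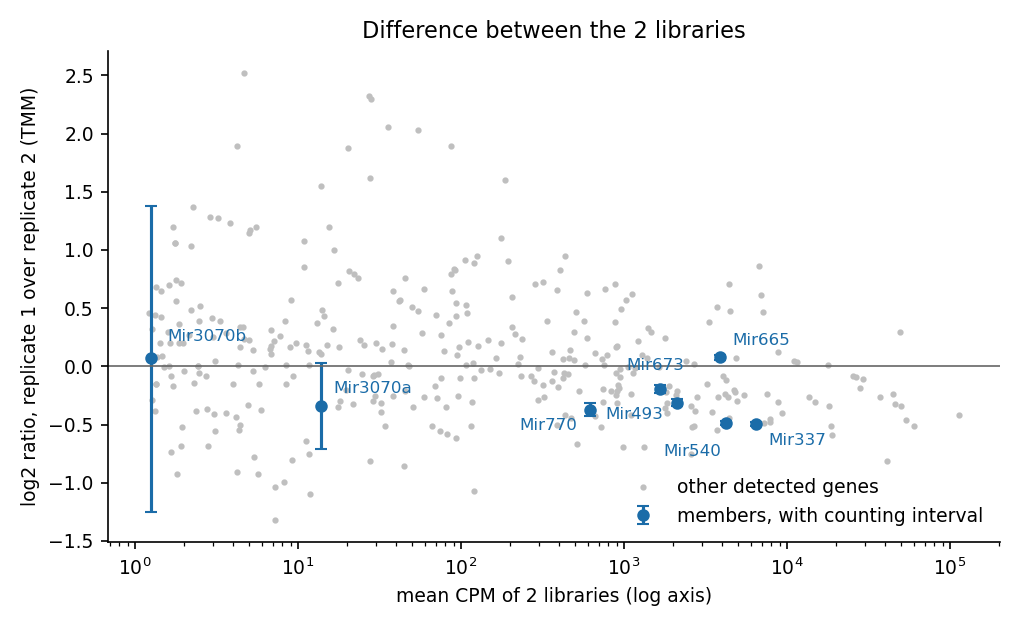
Log2 ratio of replicate 1 over replicate 2 after TMM scaling (vertical axis) against mean CPM (log axis) for the 8 members, with 95% counting intervals, and for the other detected genes. Mir337 and Mir540 lie near -0.50 and -0.49, Mir665 at 0.077, and the intervals of Mir3070a and Mir3070b include 0.

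The counts of 7 members lay wholly on the annotated strand, with 0 opposite-strand counts in both libraries. For Mir540 in replicate 2 that allows an opposite-strand share of up to 0.00609%, and for Mir770 in replicate 1 up to 0.0637%. For Mir3070b, with 11 counts in replicate 1, it allows up to 27.3%. Mir337 differed from them, with 295 opposite-strand counts in replicate 1 and 423 in replicate 2. These made 0.627% (95% exact Clopper-Pearson interval 0.558 to 0.703) and 0.556% (0.505 to 0.612) of its counts on both strands, a mean of 0.592% ± 0.0502 (SD, n = 2). On the scale of annotated-strand totals they equalled 37.1 CPM in replicate 1 and 39.1 CPM in replicate 2, more than Mir3070a.

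GENCODE M21 and RefSeq place another microRNA gene, Mir3544, opposite Mir337, at 109585813 to 109585873 on the minus strand. It has no row of its own in the tables used here, and its mature arms are shown because they lie opposite those of Mir337.
miR-3544-5p: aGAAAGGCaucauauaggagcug
miR-3544-3p: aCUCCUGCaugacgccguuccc
By position, miR-3544-5p overlaps 21 bases of miR-337-3p and miR-3544-3p overlaps 17 bases of miR-337-5p. From which part of the hairpin the opposite-strand reads came is not given by counts per gene. Of 198 detected genes with at least 1000 annotated-strand counts in the 2 libraries together, 171 had 0 opposite-strand counts, and 5 had an opposite-strand share above 0.5%. These were Mir337, Mir203, Mir338, Mir486 and the row named Mir3071, chosen after their values were seen, and 4 of the 5, all but Mir203, have a microRNA gene annotated on the other strand. Such a gene was annotated for 10 of the 198. The minimum leaves out rows with few annotated-strand counts, also where most counts lie on the opposite strand. Mir299b had 83429 and 125377 opposite-strand counts in replicates 1 and 2, against 59 and 118 on the annotated strand. For Mir3074-1 these were 224 and 326 against 155 and 142.

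Further along the domain, a list of microRNA genes at Rtl1, called the Rtl1-antisense list (6 in the tables), and the distal genes from Mir379 to Mir410 (37) were set beside the members. On the list 5 genes are read from the plus strand, antisense to Rtl1, while GENCODE M21 puts the row named Mir3071 on the minus strand, that of Rtl1, under another version of its ID than the tables have. Mir136, also on the list as fixed (7 genes), lies opposite it and has no row. The strand of the Mir3071 row in the annotation used for counting was not at hand. Its counts may be those of Mir136, which was not tested. All rows from Meg3 to Mir3072 took 34.4% of annotated-strand counts in replicate 1 and 39.4% in replicate 2, and the 8 members held 5.34% and 4.92% of that. The members' summed counts were 0.189 of those of the Rtl1-antisense list in replicate 1 and 0.164 in replicate 2 (mean 0.177 ± 0.0182 SD, n = 2), with a mean of 0.181 when the Mir3071 row was left out, a setting chosen after seeing the data. They were 0.0821 of those of the distal list in replicate 1 and 0.0776 in replicate 2 (mean 0.0799 ± 0.00323). These ratios were not tested. The distal rows Mir299b, Gm25750, Gm25252 and Gm24321 are annotated on the minus strand. Opposite-strand counts at distal rows, 443123 in replicate 1 and 647331 in replicate 2, are left out of the distal sum and median and of the domain's share. With counts on either strand the ratio to the distal list was 0.0643. The highest genes of the neighbouring lists were Mir431 (33048 and 48970 CPM) and Mir127 (37145 and 37634 CPM) antisense to Rtl1, and Mir487b (54621 and 65676 CPM) and Mir411 (49396 and 57496 CPM) among the distal genes. Each exceeded Mir337 in both libraries. The median level by gene was 1881 CPM for the members, 13356 CPM for the Rtl1-antisense list (18904 CPM without the Mir3071 row) and 983 CPM for the distal list.

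The lean towards replicate 2 was present in the neighbouring lists as well. The median log2 ratio was -0.33 for the members, -0.48 for the 5 detected genes of the Rtl1-antisense list and -0.34 for the 32 detected distal genes. Called higher in replicate 2 were 5 of the 8 members, 4 of the 5 genes of the Rtl1-antisense list and 25 of the 32 distal genes, beside the 31.0% over all detected genes. The fifth gene of that list was the Mir3071 row, with a log2 ratio of 0.017. Without it the list had a median of -0.53, and its 4 detected genes were all called higher in replicate 2. Called higher in replicate 1 were 1 member, 0 genes of the Rtl1-antisense list and 3 distal genes. Genes of 1 domain share their source and are not independent of each other. Mir1906-1, the further microRNA gene annotated inside Meg3, had 0 counts in both libraries. For reads placed at this gene alone that allows up to 0.377 CPM in replicate 1 and 0.277 CPM in replicate 2. Its name marks it as a numbered copy, and reads that fit several places are not counted. The limit therefore does not bound the level of its mature microRNA. Mir432, in the Rtl1-antisense list, also had 0 counts in both.

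Genes most like each member in level were found as the 2 detected genes at the smallest distance in log2(CPM + 1) over the 2 libraries, so likeness here is of level alone. For Mir493 they were Mir329 of the distal list (2088 and 2095 CPM, distance 0.0451) and Mir484. For Mir673 they were Mir495 and Mir485, both distal, at distances of 0.134 and 0.182. Mir540 stood nearest to Mir341 (4124 and 4730 CPM, distance 0.112), a gene of the same domain, and to Mir652. Mir337 stood nearest to Mir369 (6652 and 7850 CPM, distance 0.245), which is distal, and to Mir139. Mir665 had neighbours outside the domain, Mirlet7b (4254 and 3809 CPM, distance 0.148) and Mir98, as did Mir770, with Mir615 and Mir125b-1 at 0.134 and 0.308. Mir125b-1 is a numbered copy, and its level leaves out reads that fit several places. Mir3070a was nearest in level to Mir208a (15.5 and 12.1 CPM, distance 0.294) and Mir19a.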

How the data were processed

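Small RNA of newborn mouse skeletal muscle was sequenced in 2 libraries of 1 group. The authors deposited, per library, raw counts per microRNA gene on either strand, on 1 strand and on the other. Assembly mm10 and annotation GENCODE M4 are named in the deposited readme; no source used here names the aligner or counter. The strand columns add up for all 1973 genes, and the column with most counts was read as the annotated strand, which the values but no header show. Rows naming no gene (multiple places 28.0% and 26.9%, unmapped 16.0% and 13.4%, no gene on the annotated strand 7.43% and 8.35% of reads in replicates 1 and 2) stayed out of library sizes and tests.

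Symbols and coordinates came from GENCODE M21 by unversioned ID (1894 of 1973 matched), and sequences from RefSeq. Stretches of 18 bases of each arm were searched in RefSeq hairpins and GENCODE transcripts; the genome itself was not searched. TMM factors were 1.09 and 0.918 (edgeR 4.0.16, R 4.3.3). The binomial test used scipy 1.17.1, over all 365 detected genes, and was tested on simulated data. The simulated libraries held counting error alone, as the test assumes, so they do not show how it performs where libraries vary more. DESeq2 1.42.0 gave alternative size factors; folds came from RNAfold 2.7.2 (ViennaRNA). edgeR's quasi-likelihood test has no residual degrees of freedom here. Members and lists were chosen with earlier results of these data known. Genes named are the members, their overlaps and neighbours, the 2 highest of each neighbouring list, the 2 nearest in level to members of at least 10 CPM, and the highest gene per shared seed.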

Additional observations from a re-analysis of the deposited data

Results flagged for a closer look

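The opposite-strand counts at Mir337 lie outside the annotated-strand measurement and stood above the limit of 3 counts that a count of 0 allows, with 295 in replicate 1 and 423 in replicate 2. The other 7 members had 0 such counts.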

How the results depend on the processing

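With all reads as the denominator the members' summed share was 0.945% and the median level of the 8 genes 940.0 CPM, and with counts on either strand they were 1.68% and 1668 CPM. Counts on either strand also lowered the ratio of the members to the distal list to 0.0643, since 443123 and 647331 opposite-strand counts at distal rows then enter in replicates 1 and 2. Scaling by library totals moved the members' median log2 ratio to -0.080 and turned the ratio of Mir673 to 0.053, against -0.19 with TMM. Under both other scalings, either-strand counts and count minimums of 1 and 50, 6 members were called and 0 passed 2-fold; with TMM and the count minimum of 10, 0 passed 1.5-fold. A count minimum of 50 left 7 members. Leaving out a replicate gave a summed share of 1.84% to 1.94%, a ratio to the Rtl1-antisense list of 0.164 to 0.189 and to the distal list of 0.0776 to 0.0821. A ratio between replicates cannot be had from 1 library. With TMM outside the domain, chosen after seeing the data, Mir665 was no longer called and Mir3070a was (ratio -0.40, adjusted p = 0.0418, exact binomial test). Depth limits Mir3070b most. No paired analysis was possible because there is 1 group.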
